A study of Homo sapiens with 6 samples.

Results

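The YAP, TAZ and TEAD pathway genes described here are 10 genes, taken from the 24480 gene symbols of the deposited table by their names: the coactivator genes YAP1 and WWTR1 (which encodes TAZ), the DNA-binding partner genes TEAD1, TEAD2, TEAD3 and TEAD4, the kinase gene LATS2, the angiomotin-like genes AMOTL1 and AMOTL2, and the target gene ANKRD1. All 10 were in the table, and 9 passed the filter on low values. The data were RNA-seq of LN229, an established human glioblastoma cell line, in 6 libraries. The transduced construct was the vector in 3 of them and LACTB, which encodes a mitochondrial protein, in the other 3, for its overexpression. No other treatment is given in the labels, nor whether the transduced cells were clones or pools, nor whether replicate libraries were grown as different cultures. Every p-value therefore rests on library-to-library spread, possibly technical only. The study asked what LACTB does in glioma cells, and the comparison here is LACTB against vector.

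YAP and TAZ are the output of the Hippo pathway. The kinases STK3 and STK4 with SAV1 activate LATS1 and LATS2 with their cofactors MOB1A and MOB1B, and the LATS kinases phosphorylate YAP and TAZ, which are then held in the cytoplasm or degraded. Unphosphorylated YAP and TAZ enter the nucleus, bind no DNA themselves, and drive transcription through the TEAD factors. Angiomotin family proteins hold YAP and TAZ outside the nucleus, NF2 promotes LATS activation, and VGLL4 competes for TEAD. Several target genes, LATS2 and AMOTL2 among them, encode inhibitors of YAP and TAZ, which makes a negative feedback. RNA levels do not show phosphorylation or where the proteins are.

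TEAD factors recognise the letters GGAATG. These letters, read on both strands, were searched in the 250 bases before the annotated start of each gene, in RefSeq promoters on GRCh38.p14. Windows were matched for 8 members (11 windows, since some genes have several starts), and 3 of these windows, in 3 members, held the letters. In the target list used below, 16 genes (18 windows) were matched and 8 windows in 8 genes held them. Members that are also targets (LATS2, AMOTL2 and ANKRD1) are in both counts. No window was matched for TEAD1, TEAD4 or the target CCN1, so the letters were not searched there. Of all 35116 promoter windows, 11.9% did. The 4 windows below are shown because they carry the letters in genes whose levels the results turn on. They are ANKRD1 (chr10:90921088-90921337, minus strand), CCN2 (chr6:131951373-131951622, minus strand), AMOTL2 (chr3:134374448-134374697, minus strand) and YAP1 (chr11:102110197-102110446, plus strand). Each is written 5′ to 3′ along the gene, and capitals mark GGAATG or its reverse complement CATTCC.
ANKRD1: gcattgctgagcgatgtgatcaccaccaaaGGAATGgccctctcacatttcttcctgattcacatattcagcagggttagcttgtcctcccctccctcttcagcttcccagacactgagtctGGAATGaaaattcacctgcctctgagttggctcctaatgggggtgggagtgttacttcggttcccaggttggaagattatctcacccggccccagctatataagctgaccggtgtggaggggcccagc
CCN2: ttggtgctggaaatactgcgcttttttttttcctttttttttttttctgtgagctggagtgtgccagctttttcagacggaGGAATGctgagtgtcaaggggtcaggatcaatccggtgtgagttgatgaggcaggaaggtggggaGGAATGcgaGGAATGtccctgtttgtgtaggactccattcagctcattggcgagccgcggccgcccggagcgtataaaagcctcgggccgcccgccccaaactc
AMOTL2: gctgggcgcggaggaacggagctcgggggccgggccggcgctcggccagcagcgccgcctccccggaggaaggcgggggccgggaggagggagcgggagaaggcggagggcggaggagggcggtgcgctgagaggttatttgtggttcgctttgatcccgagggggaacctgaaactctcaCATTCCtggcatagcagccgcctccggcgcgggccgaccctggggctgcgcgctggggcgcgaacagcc
YAP1: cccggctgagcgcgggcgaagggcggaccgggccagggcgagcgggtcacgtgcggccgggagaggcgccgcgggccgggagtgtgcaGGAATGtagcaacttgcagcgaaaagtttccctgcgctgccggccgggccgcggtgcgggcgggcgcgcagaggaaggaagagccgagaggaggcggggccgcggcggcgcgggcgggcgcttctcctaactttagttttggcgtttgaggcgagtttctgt
CCN2 held 3 matches, beginning at positions -169, -104 and -95, where -1 is the last base before the start. ANKRD1 held 2, at -220 and -128. AMOTL2 held 1 at -69, in the reverse orientation, and YAP1 held 1 at -162. The ANKRD1 window also held TGATTCA at -195, a match to the AP-1 type pattern TGANTCA with T as its free base N. That pattern, read on both strands, was in 6.57% of all windows. CCN2, ANKRD1, AMOTL2 and YAP1 were at a higher level in every LACTB library than in any vector library. Among all tested genes, to which ANKRD1 did not belong, 31.1% were so placed. These genes were picked with their levels known, so their shared direction is no result about the letters. FOXF2, a target whose window also held the letters (at -196), was lower in every LACTB library, as were 28.7% of tested genes. AMOTL1 and the target MYOF, whose windows held no match, were also higher in every LACTB library. A second AMOTL2 window held no match either. A match is a description of the letters and not of binding, which was not measured.

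Column totals ranged from 38049107 to 41384269 normalized counts in vector libraries and from 34907025 to 35683521 in LACTB libraries. LACTB stood at 458, 515 and 393 normalized counts in vector libraries 1, 2 and 3 and at 4268, 4078 and 4203 in LACTB libraries 1, 2 and 3, so the libraries fit their labels. Of 12 glioma and astrocyte markers, 10 had a mean of at least 1 CPM (37.7 normalized counts), and the astrocyte genes AQP4 and ALDH1L1 lay below it. SOX9 reached it only through the LACTB libraries (mean 10.8 in vector, 65.6 in LACTB cells). The table held 7 immune markers, of which CD68 alone reached that level. For the other types, the numbers reaching it were 2 of 6 endothelial, 2 of 5 epithelial, 5 of 7 neuronal and 4 of 7 melanocytic markers. The melanocytic list summed to between 48664 and 62480 in vector libraries and between 41270 and 43336 in LACTB libraries, with SOX10 as its most abundant gene. In that list the means, vector then LACTB, were 1776 and 57.7 for DCT, 1369 and 485 for MITF and 383 and 101 for PMEL. DCT, MITF, PMEL, SOX10 and TYR were lower in every LACTB library, with TYR at 0 there, and MLANA overlapped. TYRP1 was higher in each LACTB library (18.0, 32.4 and 18.1) than in any vector library (12.5, 0.102 and 0.0601). MLANA, TYR and TYRP1 had means below 1 CPM. The epithelial list summed to between 5866 and 7174 in vector libraries and to between 2781 and 3263 in LACTB libraries. The immune list, nearly all CD68, summed to 1068 to 1198 and 1619 to 1731, and the endothelial list to 246 to 315 and 180 to 208. In the endothelial list KDR (mean 69.9 in vector, 4.86 in LACTB cells) was lower in every LACTB library, and the other genes overlapped. The glioma and neuronal sums overlapped between groups, but single genes in them did not. In the glioma list S100B (mean 33778 in vector, 14499 in LACTB cells) and OLIG2 were lower in every LACTB library. GFAP, SOX2 (1131 and 2674), VIM, SOX9, EGFR (520 and 1321) and CD44 were higher in every one. In the neuronal list SYT1 (123 and 379) was higher in every LACTB library, and the other genes overlapped. The part of these shifts in the results below was not tested, and in such bulk libraries fewer cells of a kind and less RNA per cell cannot be told apart.

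Among the 9 members tested, 4 rose with LACTB (YAP1, TEAD1, AMOTL1 and AMOTL2), 2 fell (TEAD2 and TEAD4), and 3 did not pass (WWTR1, TEAD3 and LATS2). Across all 12939 tested genes 27.4% rose and 24.6% fell as deposited, so 51.9% were called and a call is common in this comparison. That split by direction moved with the scaling of the libraries, as described below. On the fitted log2 difference, TEAD1 and AMOTL1 were called with at least a 2-fold rise, AMOTL1 only just, and no member with such a fall, against 6.34% and 4.48% of all tested genes. The median log2 difference of the 9 members was -0.053, against 0.046 over all tested genes. A gene is called here when limma's adjusted p is under 0.05, and a log2 difference is LACTB minus vector on log2(normalized count + 1).

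**Figure D1:**
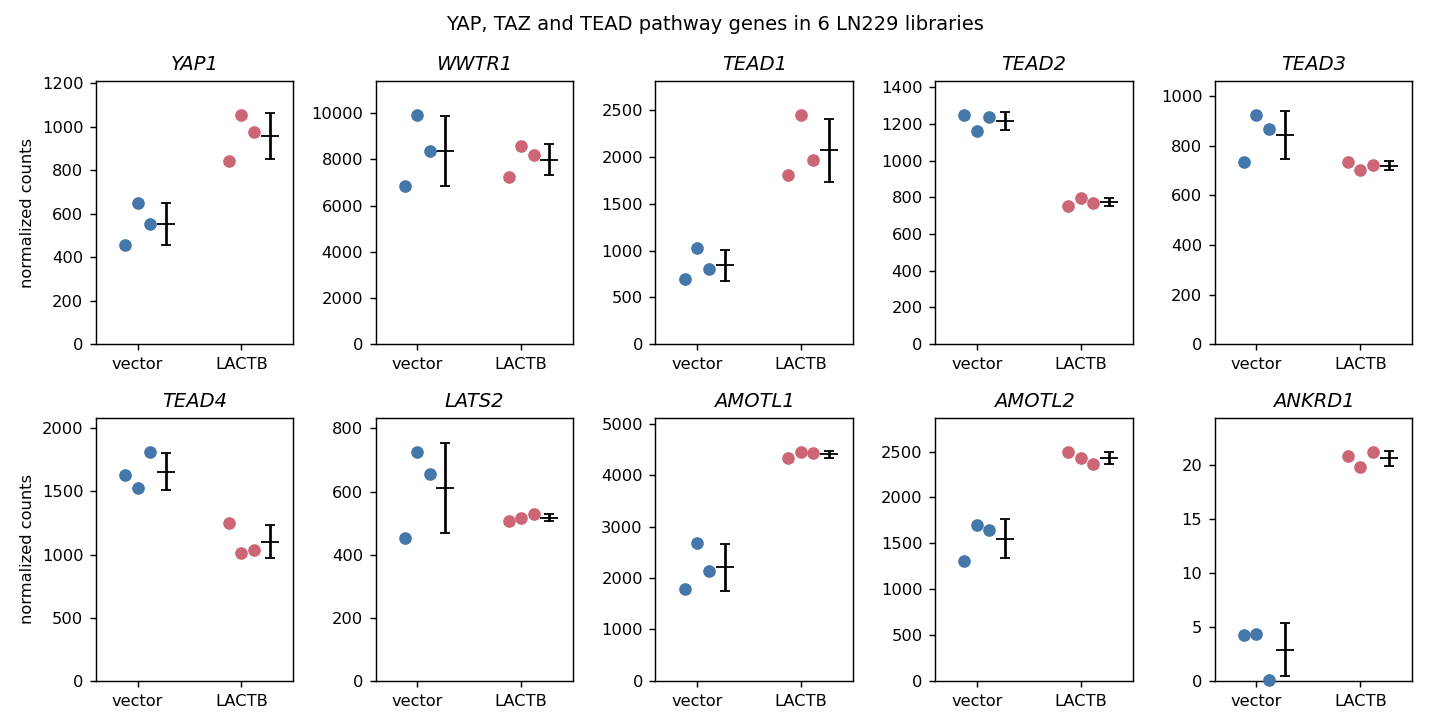
Normalized counts of the 10 pathway genes (vertical axes, each starting at 0) in the 3 vector libraries (blue) and the 3 LACTB libraries (red), with the mean and SD in black. YAP1, TEAD1, AMOTL1, AMOTL2 and ANKRD1 lie higher in every LACTB library, TEAD2, TEAD3 and TEAD4 lie lower in every LACTB library, and WWTR1 and LATS2 overlap.

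YAP1 (chromosome 11, 102110461 to 102233423, plus strand, GRCh38) encodes the coactivator YAP. It stood at 457, 651 and 554 normalized counts in vector libraries 1, 2 and 3 and at 842, 1053 and 976 in LACTB libraries 1, 2 and 3. The groups did not overlap, and library 2 was the highest of each. The mean went from 554 ± 96.6 to 957 ± 107 (SD, n = 3 each), a log2 difference of 0.80 (SE 0.15, limma adjusted p = 0.00018).

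WWTR1 (chromosome 3, 149517235 to 149736714, minus strand) encodes TAZ, the paralog of YAP. It stood at 6843, 9900 and 8340 in the vector libraries and at 7229, 8562 and 8177 in the LACTB libraries. All 3 LACTB values lay within the range of the vector values. The difference of -0.053 had a 95% interval from -0.32 to 0.21 (limma adjusted p = 0.75). Once the trend with transcript length and GC content described below was removed, WWTR1 was lower by 0.43 (limma adjusted p = 0.0086).

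The balance between the 2 coactivator genes differed between the groups by more than the spread within them. YAP1 made up 5.86%, 5.77% and 5.83% of the YAP1 and WWTR1 sum per kb of transcript in vector libraries and 9.79%, 10.3% and 10.01% in LACTB libraries. The highest vector library was 1.42 times the lowest for YAP1 and 1.45 times for WWTR1, while the shares within vector cells were nearly equal. The mean share was 4.20 percentage points higher with LACTB, and an exact two-sided permutation test gave p = 0.1, the smallest that 3 against 3 allows. A share within a library cannot be moved by any scaling of the whole library. The log2 ratio of YAP1 to WWTR1, genes of similar transcript length (5398 and 5030 bp), was higher with LACTB by 0.85 as deposited and by 0.90 with length and GC removed. The sum of both genes per kb was 1765 ± 322 in vector and 1766 ± 156 in LACTB cells (exact p = 1).

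The 4 TEAD genes encode transcription factors with nearly the same DNA-binding domain. As deposited TEAD1 rose, TEAD2 and TEAD4 fell and TEAD3 did not pass. TEAD1 (chromosome 11, 12674591 to 12944483, plus strand) stood at 697, 1025 and 804 in vector libraries and at 1805, 2445 and 1963 in LACTB libraries. The lowest LACTB library was 1.76 times the highest vector library. The mean went from 842 ± 167 to 2071 ± 333, a log2 difference of 1.30 (SE 0.15, limma adjusted p = 2.8e-07), the largest rise among the 9 tested members as deposited.

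TEAD2 (chromosome 19, 49340595 to 49362457, minus strand) stood at 1246, 1158 and 1238 in vector libraries and at 754, 797 and 768 in LACTB libraries. Libraries of a group lay close together, and the groups were far apart relative to that spread. TEAD2 fell by 0.65 on the log2 scale (SE 0.13, limma adjusted p = 0.00020). With length and GC removed it was -0.28 (limma adjusted p = 0.026). TEAD4 (chromosome 12, 2959330 to 3040673, plus strand) stood at 1630, 1524 and 1811 in vector libraries and at 1252, 1014 and 1037 in LACTB libraries. Its groups did not overlap, and it fell by 0.59 on the log2 scale (SE 0.13, limma adjusted p = 0.00059). This call was lost with length and GC removed, where the difference was -0.12 (limma adjusted p = 0.27).

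TEAD3 (chromosome 6, 35473597 to 35497076, minus strand) stood at 735, 922 and 869 in vector libraries and at 734, 700 and 723 in LACTB libraries. The groups did not overlap, but LACTB library 1 and vector library 1 were nearly equal. Groups that do not overlap were found for 59.7% of all tested genes, 31.1% in the higher direction and 28.7% in the lower, and for 7 of the 9 tested members, 4 higher and 3 lower. The difference was -0.22 (95% interval -0.51 to 0.064, limma adjusted p = 0.18). It passed the threshold with median centring (-0.35, limma adjusted p = 0.033), with quantile normalization (-0.36, limma adjusted p = 0.026) and without vector library 1 (-0.32, limma adjusted p = 0.029), and had the opposite sign with length and GC removed (0.12).

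As a share of the TEAD sum per kb, TEAD1 made up 4.56%, 6.69% and 4.83% in vector libraries and 14.1%, 19.9% and 16.5% in LACTB libraries. TEAD4 was the most abundant TEAD gene per kb in all 6 libraries, at 52.6% ± 2.42 in vector and 44.7% ± 3.96 in LACTB cells. TEAD2 went from 26.8% ± 1.33 to 21.8% ± 1.16, while TEAD3 stood at 15.2% ± 1.76 and 16.6% ± 0.607. For TEAD1, TEAD2 and TEAD4 the groups did not overlap (exact permutation p = 0.1 each, the smallest possible), and for TEAD3 the test gave an exact p of 0.3. The sum over the 4 genes per kb was lower with LACTB as deposited, at 1454 ± 53.4 against 1858 ± 92.3 (exact p = 0.1). Unlike a share, this sum and the other family sums move with the scaling of a library. They are given only as deposited. TEAD4 and TEAD2, the largest parts of the TEAD sum in vector cells, differed by only -0.12 and -0.28 with length and GC removed. With length and GC removed the TEAD1 share still differed between groups, at 7.29% in vector and 12.6% in LACTB cells, and the log2 ratio of TEAD1 to TEAD4 was higher with LACTB by 0.87, against 1.89 as deposited.

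**Figure D2:**
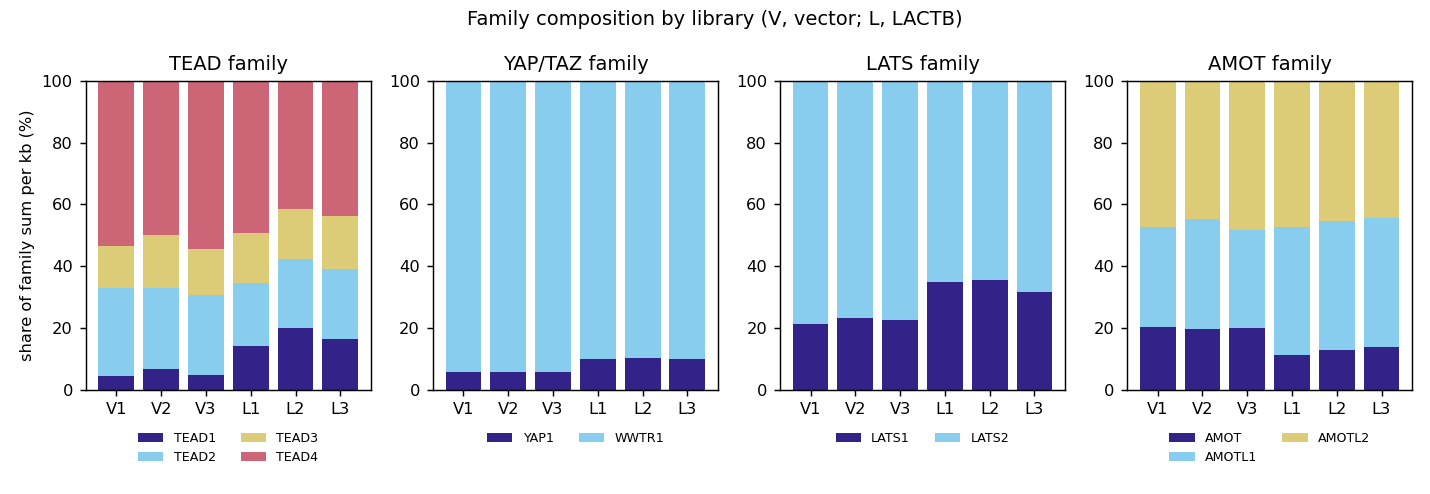
Share of each gene in its family sum per kb of transcript (vertical axis, percent) for each of the 6 libraries, where V1 to V3 are vector and L1 to L3 are LACTB libraries. The TEAD1, YAP1 and LATS1 segments are larger and the AMOT segment smaller in all 3 LACTB libraries.

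Angiomotin-like proteins bind YAP and TAZ at cell junctions and on actin. AMOTL1 (chromosome 11, 94706431 to 94876753, plus strand) stood at 1791, 2689 and 2138 in vector libraries and at 4333, 4447 and 4420 in LACTB libraries. The LACTB libraries were nearly equal, with a coefficient of variation of 1.36% against 20.5% in vector libraries. The mean went from 2206 ± 453 to 4400 ± 59.8, a 1.99-fold rise (log2 difference 1.02, SE 0.13, limma adjusted p = 1.4e-06). AMOTL2 (chromosome 3, 134355874 to 134375479, minus strand), itself a YAP and TAZ target, stood at 1306, 1700 and 1646 in vector libraries and at 2495, 2434 and 2370 in LACTB libraries. The groups were well separated, with a log2 difference of 0.66 (SE 0.12, limma adjusted p = 0.00013), and of 0.80 with length and GC removed. AMOT, the third gene of the family, stood at 1074 ± 156 and 1093 ± 111, a difference of 0.030 (limma adjusted p = 0.87). The family sum per kb was 736 ± 116 in vector and 1178 ± 9.99 in LACTB cells (exact p = 0.1), and the AMOT share of it went from 20.0% ± 0.246 to 12.7% ± 1.22 (exact p = 0.1).

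LATS2 (chromosome 13, 20973032 to 21061547, minus strand) encodes a kinase that inhibits YAP and TAZ and is also one of their targets. It stood at 453, 725 and 656 in vector libraries and at 506, 516 and 529 in LACTB libraries. Vector library 1 lay below and the other vector libraries above all LACTB libraries. The difference was -0.21 (95% interval -0.56 to 0.13, limma adjusted p = 0.29). Leaving out vector library 1 gave -0.42 (limma adjusted p = 0.012). Its paralog LATS1 rose from 243 ± 68.7 to 361 ± 27.3 (log2 difference 0.61, limma adjusted p = 0.014), a call lost with quantile normalization (limma adjusted p = 0.099), without vector library 1 (0.065) and with length and GC removed (0.78). The LATS1 share of the LATS sum per kb was 22.4% ± 1.05 in vector and 33.9% ± 2.08 in LACTB cells (exact p = 0.1), and 25.7% and 29.9% with length and GC removed, where the log2 ratio of LATS1 to LATS2 overlapped between groups (exact p = 0.2). The sum itself was 143 ± 34.8 and 142 ± 2.59 per kb (exact p = 1).

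ANKRD1 (chromosome 10, 90912096 to 90921276, minus strand) encodes an ankyrin repeat protein of muscle and a widely used readout of YAP and TAZ activity. It was near the bottom of the measured range, at 4.23, 4.37 and 0.0412 normalized counts in vector libraries and at 20.8, 19.8 and 21.2 in LACTB libraries. Every LACTB library lay above every vector library, but all 6 values were under the 37.7 normalized counts of the filter, so the gene was not among the 9 tested. In a fit of all 24480 genes without a filter, in which 15.5% of genes were called higher, ANKRD1 had a log2 difference of 2.81 (limma adjusted p = 0.00050).

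Per kb of transcript, the level of WWTR1 in vector cells was the highest of the 10 genes at 1662 ± 304, followed by TEAD4 at 979 ± 85.9, TEAD2 at 497 ± 19.9, AMOTL2 at 343 ± 47.3, TEAD3 at 282 ± 32.4 and AMOTL1 at 246 ± 50.5. LATS2 at 111 ± 25.6, YAP1 at 103 ± 17.9 and TEAD1 at 99.3 ± 19.7 came next, within 1 SD of each other. AMOTL2, TEAD3 and AMOTL1 kept their order within each of the 3 vector libraries, although their ± SD ranges overlapped. ANKRD1 was last at 1.46 ± 1.24. In LACTB cells WWTR1 (1588 ± 136) and TEAD4 (651 ± 77.8) were again first, AMOTL2 (538 ± 13.9) and AMOTL1 (491 ± 6.67) came next, and then TEAD2 (317 ± 8.96). TEAD1 (244 ± 39.3) and TEAD3 (241 ± 5.74) overlapped in their ± SD ranges, above YAP1 (177 ± 19.8), LATS2 (93.8 ± 2.05) and ANKRD1 (10.4 ± 0.359). The longest annotated transcript stands for each gene here, so these levels shift if a shorter isoform is the one expressed.

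The members, like most tested genes, varied more between vector libraries than between LACTB libraries. The coefficient of variation was larger in vector cells for 8 of the 9 tested members, all but TEAD4, and for 78.2% of all tested genes. Its median over the members was 17.4% in vector and 2.83% in LACTB cells, against 14.1% and 7.05% over all tested genes. Vector library 1 was the lowest vector library for 7 of the 9 members and vector library 2 the highest for 7, while these shares were 36.8% and 31.8% over all tested genes.

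The differences of the members have to be read beside transcript length and GC content, since over all genes long and AT-rich transcripts were higher with LACTB. The median log2 difference of all genes was -0.27 in the shortest of 5 equal bins of transcript length, which holds TEAD4 (1690 bp), and -0.12 in the second, which holds TEAD2 (2440 bp) and TEAD3 (2983 bp). It was 0.16 in the fourth bin, with YAP1, WWTR1, LATS2 and AMOTL2, and 0.46 in the longest, with TEAD1 (8477 bp) and AMOTL1 (8970 bp). By GC content, the most GC-rich bin had a median of -0.28 and held TEAD2, TEAD3 and TEAD4, whose transcripts were 58.4%, 59.8% and 60.4% GC. Genes of the longest bin also differed between vector libraries, at medians of -0.29, -0.079 and -0.28 from each gene's overall mean in libraries 1, 2 and 3, and at 0.18, 0.30 and 0.20 in LACTB libraries 1, 2 and 3.

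**Figure D3:**
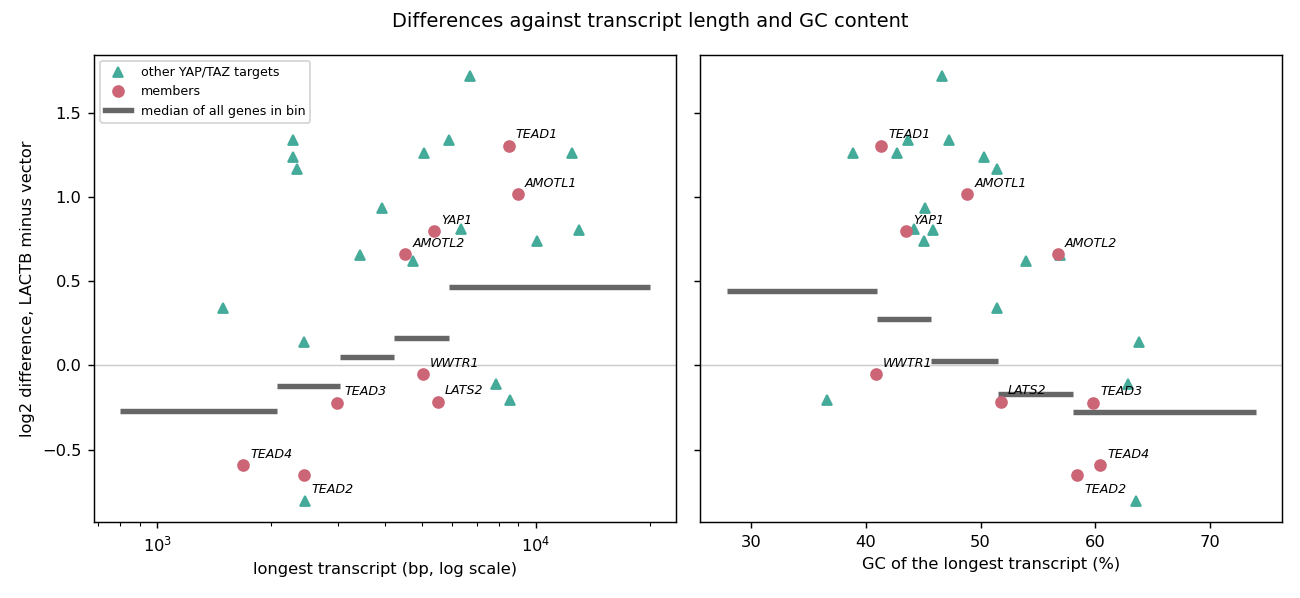
Log2 difference between LACTB and vector cells (vertical axis) against length of the longest transcript (left, log axis) and its GC content (right) for the 9 tested members (red circles) and 18 further YAP/TAZ targets (green triangles). Grey bars are medians of all genes in 5 equal bins, drawn only in part for the shortest and longest. TEAD1, AMOTL1, YAP1 and AMOTL2 lie above the bars of their bins, and TEAD2, TEAD4, WWTR1 and LATS2 below theirs, in both panels.

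With a spline on length and GC removed from every library, 4 of the 9 members rose and 2 fell, as before, but not the same genes. The 4 that rose were again YAP1 (0.48), TEAD1 (0.76), AMOTL1 (0.75) and AMOTL2 (0.80), and those that fell were TEAD2 (-0.28) and WWTR1 (-0.43). Across all genes 27.4% rose and 22% fell in that fit. The 50 tested genes nearest to each member on its chromosome gave another comparison. Their median was 0.42 around YAP1, 0.37 around AMOTL1, which lies on the same chromosome arm, and 0.40 around TEAD1, and with length and GC removed it was 0.15, 0.086 and 0.28. It was -0.35 around TEAD2 and 0.021 after that removal. Around WWTR1, TEAD3, TEAD4 and AMOTL2 it was 0.20, -0.00017, -0.19 and 0.12. With length and GC removed these medians were -0.046, 0.081, 0.0025 and 0.097. TEAD4 has 44 such genes. Around LATS2, which has 38 such genes because it lies near the first genes of its chromosome, the median was -0.086 as deposited and -0.23 with length and GC removed, against -0.21 and -0.23 for LATS2 itself.

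**Figure D4:**
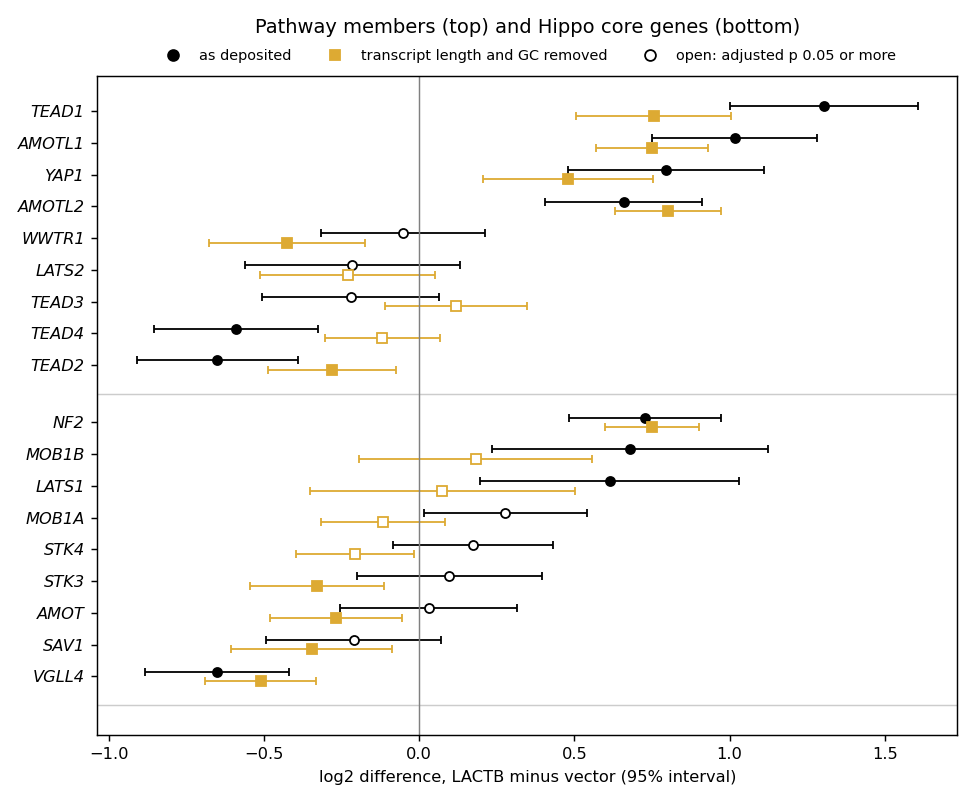
Log2 difference, LACTB minus vector, with its 95% interval (horizontal axis), for the 9 tested members (top) and 9 Hippo core genes (bottom), as deposited (black circles) and with transcript length and GC removed (yellow squares). Open symbols did not pass an adjusted p of 0.05. YAP1, TEAD1, AMOTL1, AMOTL2 and NF2 passed above 0 and VGLL4 and TEAD2 below 0 in both fits.

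The list called Hippo core here held STK3, STK4, SAV1, LATS1, MOB1A and MOB1B, and also the regulators NF2, AMOT and VGLL4. The kinase gene LATS2 was counted with the members instead. Of the 9 listed genes 3 rose, 1 fell and 5 did not pass (median 0.17). Of all tested genes 27.4% rose and 24.6% fell (median 0.046). NF2, which encodes the tumour suppressor merlin, stood at 3200, 3879 and 4082 in vector libraries and at 6691, 5782 and 5942 in LACTB libraries. The groups did not overlap, and NF2 rose by 0.73 on the log2 scale (limma adjusted p = 2.9e-05). VGLL4, which competes with YAP and TAZ for TEAD, stood at 3922, 4365 and 4072 in vector libraries and at 2383, 2748 and 2756 in LACTB libraries. It was lower in every LACTB library, by a log2 difference of -0.65 (limma adjusted p = 5.9e-05). The median of its 50 neighbours was -0.28.

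LATS1 was also called higher, and so was MOB1B, a LATS cofactor (219 ± 52.4 to 352 ± 96.5, log2 difference 0.68, limma adjusted p = 0.011). The MOB1B call was lost with quantile normalization (limma adjusted p = 0.058), without vector library 3 (0.10), without LACTB library 2 (0.11) and with length and GC removed (0.40). The kinase genes STK3 (0.097) and STK4 (0.17), the scaffold gene SAV1 (-0.21), MOB1A (0.28) and AMOT (0.030) were not called. With length and GC removed only NF2 rose, and VGLL4 (-0.51), SAV1 (-0.35), STK3 (-0.33) and AMOT (-0.27) fell. With equal column totals 5 rose and 1 fell.

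Of 27 further regulators, 23 were tested, of which 16 rose, 3 fell and 4 did not pass (median 0.75), against 27.4% higher, 24.6% lower and a median of 0.046 over all tested genes. The 5 called with the largest differences all rose. The atypical cadherin gene FAT4 went from 59.1 ± 16.8 to 223 ± 17.8 and FAT1 from 2562 ± 864 to 7603 ± 372, while TAOK1, a kinase acting on STK3 and STK4, went from 397 ± 95.3 to 961 ± 207. FRMD6, a FERM domain gene, went from 1073 ± 219 to 2502 ± 203 and TJP1, a tight junction gene, from 549 ± 193 to 1231 ± 142. Limma adjusted p was at most 5.2e-05 for these 5. Their transcripts were long, between 5123 and 16123 bp, and with length and GC removed 11 of the 23 rose, 2 fell and the median was 0.36, against 27.4% and 22% of all genes. That removal took the log2 difference of TAOK1 from 1.28 to 0.58, of FAT4 from 1.94 to 1.32, of FAT1 from 1.63 to 1.11, of FRMD6 from 1.24 to 0.83 and of TJP1 from 1.23 to 0.83. The 3 that fell, picked out for their direction, were chosen after their values were seen and were WTIP (-0.85), MARK4 (-0.50) and TAOK2 (-0.29). The TAOK2 call (limma adjusted p = 0.043) did not hold with length and GC removed, with quantile normalization, with equal column totals or with no filter (limma adjusted p = 0.20, 0.33, 0.49 and 0.055).

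The target list held 22 genes known to be activated by YAP and TAZ in many cell types, and LATS2, AMOTL2, ANKRD1 and PTPN14 of the lists above are among them. Of its 20 tested genes 15 rose, 1 fell and 4 did not pass, against 27.4% of all tested genes that rose. Without the members 14 of 18 rose, with a median log2 difference of 0.81 against 0.046 over all tested genes. With length and GC removed, 13 of these 18 rose, 1 fell and the median was 0.69.

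CCN1 and CCN2, which encode secreted matricellular proteins and are standard readouts of YAP and TAZ, were higher in every LACTB library. CCN1 stood at 2202, 2693 and 2696 in vector libraries and at 7030, 5220 and 5686 in LACTB libraries (log2 difference 1.23, SE 0.13, limma adjusted p = 6.9e-08). CCN2 stood at 2038, 2422 and 2528 in vector libraries and at 6271, 4733 and 4718 in LACTB libraries (log2 difference 1.16, SE 0.13, limma adjusted p = 1.9e-07). In both genes LACTB library 1 was the highest and vector library 1 the lowest of its group. These are short transcripts of 2290 and 2339 bp, in the bin where the median gene was lower with LACTB, and with length and GC removed their differences were larger, at 1.47 and 1.43.

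The receptor tyrosine kinase gene AXL went from 12139 ± 720 to 18678 ± 1473 (log2 difference 0.62, limma adjusted p = 0.00010). MYOF, a membrane repair gene, showed the largest rise of the 20 tested, from 1981 ± 183 to 6504 ± 297. The tissue factor gene F3 went from 94.5 ± 17.6 to 239 ± 32.0, CRIM1 from 937 ± 202 to 2327 ± 94.1, the ligand gene TGFB2 from 105 ± 37.7 to 245 ± 47.1 and CCDC80 from 259 ± 34.6 to 617 ± 9.62. Limma adjusted p was at most 0.00033 for these 5. Removing length and GC took the log2 difference of CCDC80 from 1.26 to 0.64 and that of TGFB2 from 1.26 to 0.86 (limma adjusted p = 0.023). The gene that fell was FOXF2 (-0.80), chosen after its value was seen, and its call did not hold with length and GC removed. FJX1, ARHGEF17, RBMS3 and the member LATS2 did not pass. With length and GC removed FJX1 rose and RBMS3 fell.

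**Figure D5:**
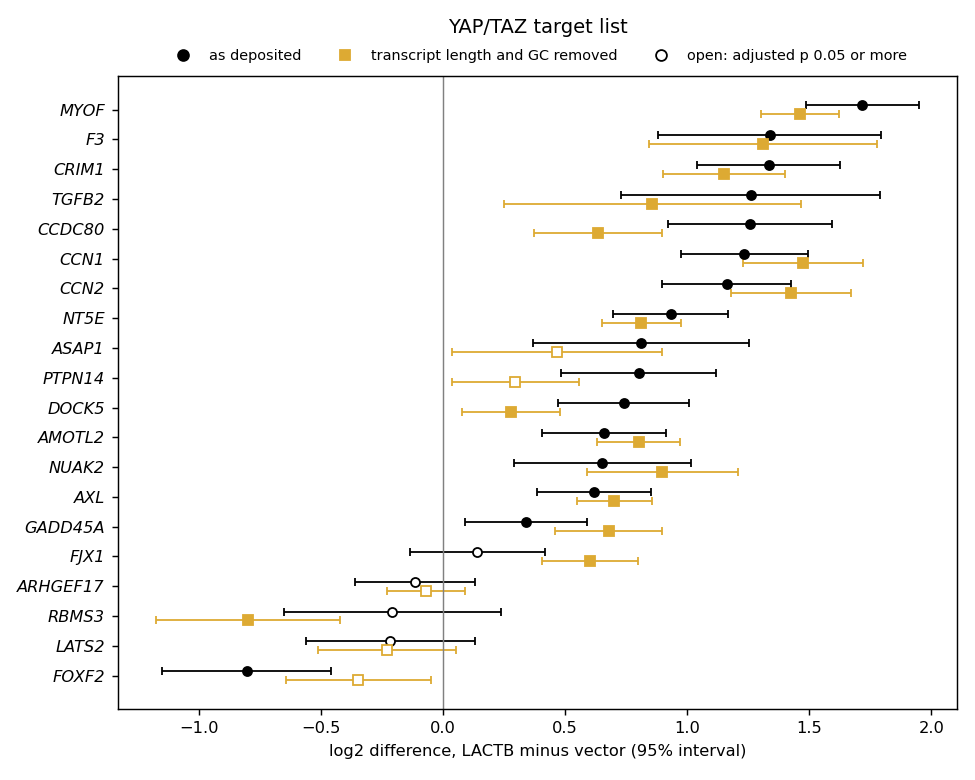
Log2 difference, LACTB minus vector, with its 95% interval (horizontal axis) for the 20 tested genes of the YAP/TAZ target list, as deposited (black circles) and with transcript length and GC removed (yellow squares). Open symbols did not pass an adjusted p of 0.05; 15 genes as deposited lie above 0 and passed, from GADD45A (0.34) to MYOF (1.72).

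Some members share exons with other genes, and whether the counting used strand is not given in the sources used here. TEAD2 shares 319 exonic bases with CD37 on the opposite strand (37.6 and 30.3 normalized counts in vector and LACTB cells), and WWTR1 shares 795 with WWTR1-AS1 (45.3 and 31.4). YAP1 shares 628 and AMOTL1 496 with antisense genes not analysed here. AMOTL2 shares 187 on the same strand with a ribosomal protein pseudogene. Without a strand setting, reads from the stretches shared with opposite-strand genes cannot be assigned to either gene.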

How the data were processed

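RNA-seq was run on 6 LN229 libraries, 3 vector and 3 LACTB. HISAT2 and hg38 are named as aligner and build in the submitters' processing notes. How reads were counted and normalized, and with which annotation and strand setting, is not given in the sources used here. Per gene and library the authors deposited a signal, here called a normalized count, which is not whole and was not treated as a read count. The reads behind each column are unknown, so precision rests on the spread between libraries. Values above 0 but below 1e-10 numbered 1951 in each vector library and 1428 in each LACTB library, so values had been adjusted before deposit, which may have altered the spread that SDs and p-values rest on. Values of exactly 0 numbered 2252 and 2561 in LACTB libraries 1 and 2. LACTB library 3 and the vector libraries held none.

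Values below 1e-10 were set to 0, and for 9 symbols on several rows the higher row was kept. A gene was tested if its mean reached 1 CPM of the mean column total (37.7 normalized counts), which 12939 did. The test was limma 3.58.1 (R 4.3.3) on log2(value + 1), with its trend and robust settings, two-sided, with Benjamini-Hochberg adjustment over all of them and a threshold of 0.05. Positions, lengths and GC came from GENCODE release 29 on GRCh38, matched for 96.2% of symbols. Promoters came from RefSeq on GRCh38.p14. Family shares used values per kb and exact permutation tests (scipy 1.17.1).

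The members and lists were chosen with earlier results of these data known. Named were all members, LACTB, the Hippo core, the 5 regulators and 6 targets called with the largest differences, and CCN1, CCN2 and AXL. Lists are described by counts and medians, with no set test. Of the target list, 1 gene is not analysed here. Alternatives were other scalings, pseudocounts, filters, limma settings and thresholds, a replicate block, leaving out each library, and a spline with 4 degrees of freedom each on length and GC. For family shares the spline was added after seeing the data.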

Additional observations from a re-analysis of the deposited data

How the results depend on the processing

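The 4 members and the 15 targets called higher stayed within 1.5 times their number under every scaling, pseudocount, filter and limma setting tried. The number of genes called, 6721, did so under all but the fold minimum. Its split by direction depended on scaling. As deposited 3544 rose and 3177 fell. Median centring gave 2684 higher and 4148 lower, and quantile normalization 3214 and 3296. Making the column totals equal gave 4974 higher and 1913 lower. The 27.4% and 24.6% used above for comparison therefore hold for the deposited scaling only. Requiring at least a 2-fold difference left 1400 genes called, 2 members higher and 0 lower, 0 Hippo core genes higher and 0 lower, 6 other regulators higher and 0 lower, and 7 targets higher and 0 lower. At an adjusted p of 0.01, 1 Hippo core gene was higher. Hippo core counts also moved with equal column totals (5 higher), with length and GC removed (1 higher, 4 lower), with median centring (2 lower) and with quantile normalization (2 lower). Leaving out each library gave 2 to 4 members lower, 1 to 3 targets lower, 2 to 4 other regulators lower, 13 to 16 other regulators higher, 14 to 15 targets higher and 5350 to 7319 genes called. The highest counts of members and targets lower came without vector library 1.

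WWTR1 changed sign to 0.14 with quantile normalization and 0.14 with equal column totals, and leaving out each library gave -0.19 to 0.077. AMOTL1 was under 2-fold with median centring (0.88), without vector library 1 (0.88) and with length and GC removed (0.75). TEAD1 was also under 2-fold with length and GC removed (0.76). With length and GC removed, signs changed for TEAD3 (0.12), STK3 (-0.33), STK4 (-0.21), MOB1A (-0.12) and AMOT (-0.27). STK3 was -0.035 with median centring and -0.070 with quantile normalization, and AMOT was -0.10 and -0.045. Leaving out each library, AMOT ranged from -0.086 without vector library 1 to 0.13 without vector library 2, and was -0.032 without LACTB library 3. The members' median of -0.053 became 0.30 without a filter, where ANKRD1 was counted as well. It became 0.14 with quantile normalization, 0.14 with equal column totals and 0.12 with length and GC removed. It was 0.077 without vector library 2 and 0.017 without LACTB library 1. The Hippo core median of 0.17 became -0.21 with length and GC removed, 0.041 with median centring and 0.37 with equal column totals. The TEAD3 share of the TEAD sum changed by -3.00 points when values were not divided by length, against 1.40, and the AMOTL2 share of its family by 6.15 points with length and GC removed, against -1.04. Apart from the counting of ANKRD1, the cause of these changes was not tested.

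The labels do not say that replicate numbers pair the libraries. Deviations of same-numbered libraries correlated at 0.023, 0.18 and 0.0034 over tested genes, and vector library 3 correlated best with LACTB library 1. With the replicate number as a block, 6879 genes were called, with the same counts of members (4 higher, 2 lower) and of targets (15 higher, 1 lower).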
